A study of Mus musculus with 4 samples.

Results

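The genes described here encode the soluble signals of the immune system and their receptors: chemokines, interleukins, ligands of the tumour necrosis factor superfamily (Tnfsf), interferons and the receptors for chemokines and interleukins. They were chosen by name, with earlier results of these data known. Taken was every promoter name on the arrays that fits the symbols Ccl, Cxcl, Ccr or Cxcr with a number, Cx3c, Il with a number, Tnfsf with a number, Ifna, Ifnb1 or Ifng. This gave 143 of 18354 promoter names, 82 on the first array design and 61 on the second, with 3905 probes. Of these, 142 of 17649 could be measured, because Ccl27 had no 3 neighbouring probes within 2000 bp. The 142 comprised 16 CC chemokines, 13 CXC and CX3C chemokines, 13 chemokine receptors, 35 interleukins and antagonists, 37 interleukin receptors, 11 Tnfsf ligands, 13 interferons, 2 interferon receptors and 2 genes that only share the naming, Il4i1 and Tnfsf5ip1.

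Ring1B was measured by chromatin immunoprecipitation on promoter arrays in primary mouse embryonic fibroblasts (MEFs) of the C57BL/6 strain, taken at embryonic day 12.5 and used at passage 2. The cells were wild type or carried Phc2 L307R on both alleles (L307R/L307R), a change in the SAM domain through which Phc2 forms polymers. Each genotype had 1 array of each of 2 designs, so each promoter was measured once per genotype, and nothing in the labels says how many embryos or cultures the DNA came from. No test between genotypes is possible and none is given. All values are log2 ratios of the Ring1B immunoprecipitate to input DNA, centred on the median of the array, and are means over a window of 3 neighbouring probes, with the SD over those 3 probes as the only error. The window is the one with the highest mean over both genotypes, so a level describes the most enriched stretch of a promoter. A promoter was called bound at a level of 1 or more, and lower or higher in Phc2 L307R if it was bound in either genotype and its level differed by 1 or more with all 3 probes on the same side. Differences are Phc2 L307R minus wild type.

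Ring1B is the catalytic subunit of Polycomb repressive complex 1 (PRC1), which ubiquitinates histone H2A and compacts chromatin at silent genes. Phc2 is a subunit of the same complex, and its SAM domain joins complexes to one another. In mammals PRC1 is found mainly at promoters rich in CpG dinucleotides, with the developmental transcription factors as its best known targets. Cytokine genes are mostly silent until a cell is stimulated, and fibroblasts are among the cells that release chemokines and interleukin-6 on injury or infection.

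The 250 bases before the RefSeq start (GRCm38.p6) are shown for 7 promoters on which the results turn, with each CpG in capitals. The first pair had the highest Ring1B levels in wild type with few CpGs, the next pair had high levels with many, Il4ra and Ifnab were the promoters called higher and lower in Phc2 L307R, and Ccl25 had the most CpGs and a level below 0.
Ccr9, chr9:123766961-123767210, plus strand: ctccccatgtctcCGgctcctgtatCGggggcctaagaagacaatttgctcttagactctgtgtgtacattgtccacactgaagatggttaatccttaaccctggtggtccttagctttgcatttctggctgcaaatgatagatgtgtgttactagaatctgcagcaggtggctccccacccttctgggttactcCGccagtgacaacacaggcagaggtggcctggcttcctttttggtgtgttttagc
Il6, chr5:30012864-30013113, plus strand: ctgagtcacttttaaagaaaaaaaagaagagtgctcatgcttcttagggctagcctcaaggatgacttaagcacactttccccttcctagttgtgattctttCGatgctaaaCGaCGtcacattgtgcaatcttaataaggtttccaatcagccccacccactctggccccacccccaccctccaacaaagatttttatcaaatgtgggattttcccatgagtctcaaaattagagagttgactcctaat
Cxcr4, chr1:128592300-128592549, minus strand: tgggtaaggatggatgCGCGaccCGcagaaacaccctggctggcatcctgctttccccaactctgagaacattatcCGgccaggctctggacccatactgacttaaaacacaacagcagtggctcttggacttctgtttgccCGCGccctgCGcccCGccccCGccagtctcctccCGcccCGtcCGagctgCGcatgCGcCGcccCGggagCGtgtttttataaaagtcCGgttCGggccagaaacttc
Cxcl12, chr6:117168285-117168534, plus strand: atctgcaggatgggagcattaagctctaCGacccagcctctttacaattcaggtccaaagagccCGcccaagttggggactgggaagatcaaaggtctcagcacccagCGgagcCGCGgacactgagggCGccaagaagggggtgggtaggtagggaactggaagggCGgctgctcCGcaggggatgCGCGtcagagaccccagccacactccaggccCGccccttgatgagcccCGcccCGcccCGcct
Il4ra, chr7:125552021-125552270, plus strand: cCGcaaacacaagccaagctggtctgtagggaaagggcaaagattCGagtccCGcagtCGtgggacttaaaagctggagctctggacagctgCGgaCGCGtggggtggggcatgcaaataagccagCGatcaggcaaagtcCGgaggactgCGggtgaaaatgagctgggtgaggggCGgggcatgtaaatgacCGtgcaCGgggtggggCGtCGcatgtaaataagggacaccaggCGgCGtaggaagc
Ifnab, chr4:88691269-88691518, minus strand: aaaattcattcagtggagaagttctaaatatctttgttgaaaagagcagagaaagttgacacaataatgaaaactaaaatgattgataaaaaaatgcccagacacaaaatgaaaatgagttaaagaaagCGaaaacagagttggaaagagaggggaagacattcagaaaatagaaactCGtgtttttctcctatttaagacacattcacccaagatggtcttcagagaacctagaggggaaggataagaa
Ccl25, chr8:4324960-4325209, plus strand: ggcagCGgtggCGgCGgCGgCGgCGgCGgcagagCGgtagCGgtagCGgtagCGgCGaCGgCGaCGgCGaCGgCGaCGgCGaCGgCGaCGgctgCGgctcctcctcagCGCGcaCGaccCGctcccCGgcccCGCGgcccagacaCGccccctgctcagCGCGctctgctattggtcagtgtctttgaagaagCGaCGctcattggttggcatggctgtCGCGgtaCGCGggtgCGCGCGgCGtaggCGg
Ccr9 and Il6 hold 3 CpGs each, Ifnab 2, Cxcl12 14, Il4ra 17, Cxcr4 19 and Ccl25 45. Ccl25 has 2 RefSeq starts, and the one with the most CpGs is shown. Which build the arrays' coordinates follow is not stated in the sources used here, so windows are not placed on these sequences.

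Between 97.9% and 99.7% of the probes of an array were well above background in the immunoprecipitate. In the input the share was 85.7% to 86.7% for wild type and 75.0% to 76.3% for Phc2 L307R. At the members, all 3 input probes of the window were well above background for 70 of 142 in wild type and for 51 in Phc2 L307R. Arrays of the 2 genotypes were scanned on different days, and scan day and genotype cannot be told apart. The deposited value tables matched the scanner ratios in Phc2 L307R (r = 0.999 over probes) but less well in wild type (r = 0.854 and 0.891), and differences from the tables are given beside those of the scanner files for the promoters on which the results turn. Fibroblast identity cannot be read from Ring1B. Of 11 fibroblast genes, 10 were bound in wild type, with Col1a1 at 2.07, Vim at 2.95 and Pdgfra at 3.03, whereas the 7 blood cell genes lay between -0.31 and 0.37.

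Ring1B was low at most of these promoters in both genotypes. In wild type 42 of 142 were bound, 29.6%, against 45.4% of all promoters. In Phc2 L307R 44 were bound, 31.0%, against 39.3%. The members' median level was 0.42 for wild type and 0.54 for Phc2 L307R, against 0.90 and 0.80 over all promoters. A level of 2 or more was reached by 6 members in wild type and by 7 in Phc2 L307R, 4.23% and 4.93%, against 8.22% and 7.49% of all promoters. As a yardstick, the 10 LIM homeobox genes, developmental transcription factors, had a median of 4.24 in wild type and were all bound. The 87 promoters named Rpl or Rps with a number, the naming of ribosomal proteins, had a median of 1.21 with 64 bound. This naming may take in other genes. The 65 cytochrome P450 promoters were at 0.16 with 12 bound, and the 838 olfactory receptor promoters at 0.13 with 5 bound. The cytokine and receptor promoters thus lay between the olfactory receptor promoters and the Rpl and Rps promoters. As a background count with the sign turned, the lowest window of a promoter was at -1 or less for 6 members in wild type and 13 in Phc2 L307R, beside 542 and 1630 of the 17649 promoters.

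The class medians were uneven. The CXC and CX3C chemokines had the highest median of the classes with more than 2 genes, 0.97 in wild type with 6 of 13 bound, followed by the Tnfsf ligands at 0.80 with 4 of 11 and the interleukin receptors at 0.66 with 15 of 37. The interferons followed at 0.54 with 1 of 13 bound. The CC chemokines were at 0.23 with 3 of 16 bound, the interleukins at 0.17 with 7 of 35 and the chemokine receptors at 0.16 with 4 of 13. Ligands and receptors had like medians, 0.42 over 88 ligands and 0.46 over 52 receptors, but 21 ligands (23.9%) and 20 receptors (38.5%) were bound. Every class with more than 2 genes except the CXC chemokines lay below the median of all promoters.

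**Figure D1:**
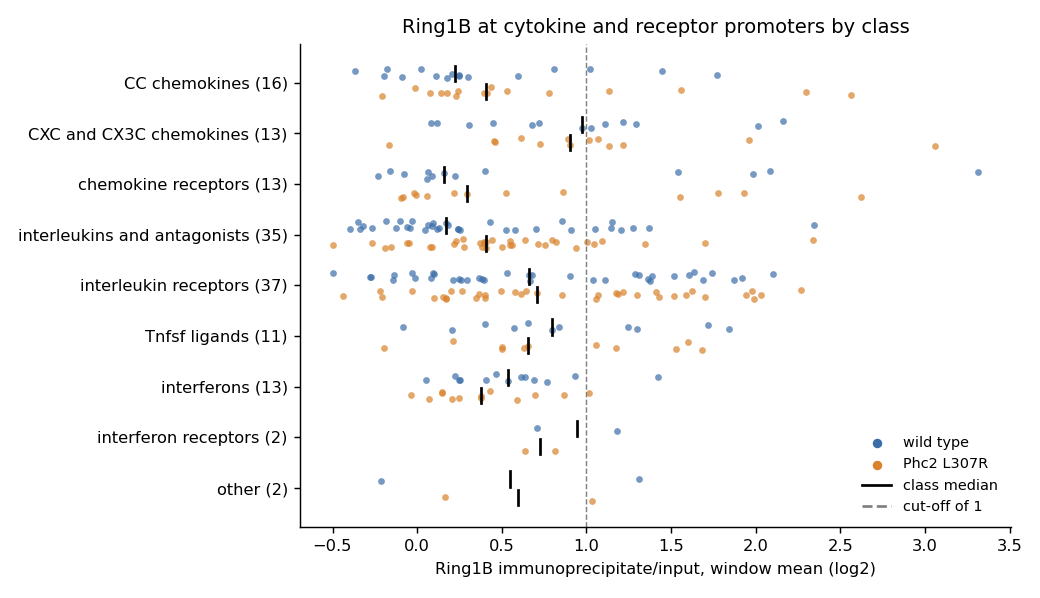
Ring1B window mean (log2 ratio of immunoprecipitate to input) for each promoter of the 9 classes, with the number of promoters in parentheses; each point is 1 promoter, blue in wild type and orange in Phc2 L307R, black bars are class medians and the dashed line is the level of 1 at which a promoter is called bound. Most points lie left of the line, and Ccr9 at 3.32 in wild type is the point farthest right.

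Among the CC chemokines, which draw monocytes, eosinophils and lymphocytes into tissue, Ring1B stood at the monocyte attractants Ccl2 and Ccl7. The 3 probes of the Ccl2 window read 1.55, 1.63 and 2.13 in wild-type cells and 3.52, 1.87 and 2.29 in Phc2 L307R, a mean of 1.77 ± 0.31 (SD over 3 probes) against 2.56 ± 0.85. At Ccl7 they read 1.67, 1.74 and 0.94 in wild-type cells and 2.67, 2.40 and 1.82 in Phc2 L307R, a mean of 1.45 ± 0.44 against 2.29 ± 0.43. All 3 probes of each window were higher in Phc2 L307R, by a mean of 0.79 ± 1.02 at Ccl2 and of 0.85 ± 0.18 at Ccl7, which is short of the difference of 1 required for a call. In the value tables these differences were 0.44 and 0.56. Along the Ccl2 region, 22 neighbouring probes over 3869 bp were at 1 or more in Phc2 L307R. In wild type the run was broken, with probes of this stretch as low as -0.09. Ccl9 was just inside the bound level at 1.02 in wild type and 1.56 in Phc2 L307R, and Ccl5, which attracts T cells, was at 0.81 and 1.13. The lowest CC chemokine was Ccl25, which guides T cells to gut and thymus, at -0.37 in wild type and 0.24 in Phc2 L307R.

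The CXC chemokines held Cxcl5 and Cxcl12. Cxcl5, a neutrophil attractant, had the highest level of all members in Phc2 L307R. Its 3 probes read 2.73, 2.32 and 1.44 in wild-type cells and 4.10, 3.12 and 1.95 in Phc2 L307R, a mean of 2.16 ± 0.66 against 3.06 ± 1.08. The difference of 0.90 ± 0.44 turned to -0.35 in the value tables, so no direction is drawn. Cxcl12, which retains blood stem cells in their niche and is made by stromal cells, had means of 2.01 ± 0.21 and 1.96 ± 0.51, and its difference of -0.05 was within the spread over probes. In the value tables it was -0.43 over the same window, and with the window chosen from the tables it was -1.02 (2.85 and 1.83), which the rule calls lower. Its Ring1B domain was the broadest among the bound members, with 22 neighbouring probes over 3763 bp at 1 or more in both genotypes. The other bound CXC promoters were Cxcl15 at 1.30 in wild type and 0.72 in Phc2 L307R, Cxcl10, an interferon-induced attractant of T cells, at 1.22 and 0.89, Cxcl14 at 1.11 and 0.90, and Cxcl2 at 1.03 and 1.22. Cxcl9, Cxcl11 and Cx3cl1 were at 0.72, 0.97 and 0.31 in wild-type cells and reached 1.14, 1.01 and 1.07 in Phc2 L307R. The lowest of the class was Cxcl16, at 0.08 and -0.16.

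**Figure D2:**
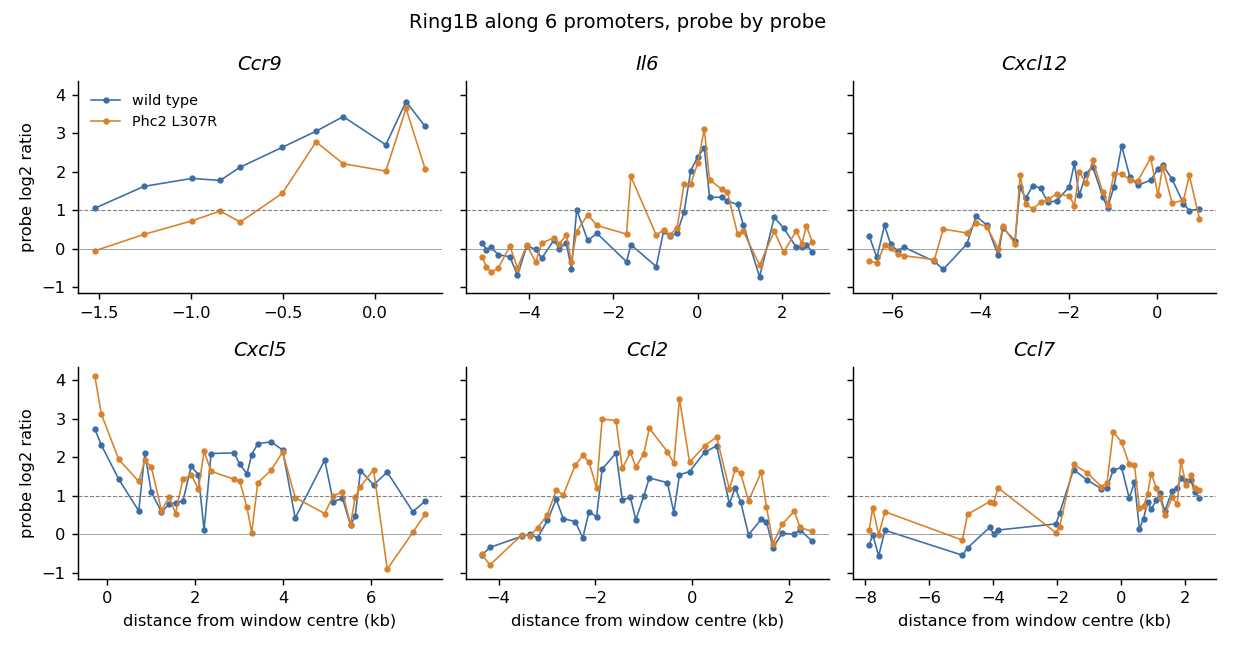
Log2 ratio of every probe of 6 promoters against its distance in kb from the centre of the window used (blue, wild type; orange, Phc2 L307R; dashed line, level of 1). Il6 shows a narrow peak and Cxcl12 a plateau of 22 probes over 3763 bp in both genotypes, the Cxcl5 window lies at the edge of its probes, and the Ccr9 probes climb towards the window.

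Of the chemokine receptors 4 of 13 were bound in each genotype, and these were the same genes, Ccr9, Cxcr4, Cxcr7 and Ccr10. Ccr9, the receptor for Ccl25, had the highest wild-type level of all 142 members and lay at the 98.7th percentile of all promoters. Its 3 probes read 3.43, 2.70 and 3.82 in wild-type cells and 2.21, 2.02 and 3.64 in Phc2 L307R, a mean of 3.32 ± 0.57 against 2.62 ± 0.89. All 3 probes were lower in Phc2 L307R, by 0.69 ± 0.52 from the scanner files and by 1.83 in the value tables. Ccr9 was therefore not called, but it was called lower under normexp background correction (-1.21), with arrays scaled to the same spread (-1.02), in the value tables and over probes well above background. All 11 of its probes read 1 or more in wild type, and all 11 read lower in Phc2 L307R. The nearest probes of another name, those of Xtrp3s1, lay 372 bp away with a window at 2.27 in wild type and 1.08 in Phc2 L307R, so the enriched stretch is not separated from that neighbour.

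Cxcr4, the receptor for Cxcl12, was at 2.09 ± 0.31 and 1.77 ± 0.43, and Cxcr7 (now Ackr3), another receptor that takes up the same ligand, at 1.98 ± 0.70 and 1.55 ± 0.32. The ligand Cxcl12 and both of its receptors were thus among the 7 highest members in wild type. Ccr10 was at 1.54 and 1.93, with probes of Plekhh3 at 1023 bp that read 2.81 in wild type. The other 9 of the 13 were between -0.23 and 0.40 in wild type. The highest of these was Ccr3, the eosinophil receptor, at 0.40 and 0.86 in Phc2 L307R, and Cxcr3 was the lowest of the class at -0.23 and 0.06. The ligand Ccl25, which binds Ccr9, was among the 3 lowest members in wild type, at the other end of the order from its receptor.

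Of the interleukins, Il6 was the single promoter above 2. Il6, which drives the acute phase response and is released by stimulated fibroblasts, had probes at 2.03, 2.39 and 2.62 in wild-type cells and at 1.68, 2.23 and 3.10 in Phc2 L307R. The means were 2.34 ± 0.30 and 2.34 ± 0.72, so the level did not differ beyond the spread over probes, and the peak was narrow, with 6 neighbouring probes over 926 bp at 1 or more in both genotypes. The Il1rn promoter, whose product blocks the interleukin-1 receptor, was at 1.37 ± 0.29 and 1.00 ± 0.29. Il7, a survival factor of lymphocytes made by stroma, was at 1.28 and 1.70. Il12a was at 1.21 and 0.94, Il33, an alarm signal of damaged cells, at 1.15 and 1.35, and Il17d at 1.14 and 0.82. Il13, a cytokine of type 2 immunity, was at 1.05 ± 0.26 in wild type and 0.23 ± 0.52 in Phc2 L307R, lower by 0.82 with all 3 probes on the same side, and by 1.21 in the value tables.

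Il15 and Il16 were bound in Phc2 L307R alone by the rule, at 1.09 and 1.04 against 0.86 and 0.43 in wild type. Among the interleukins bound in neither genotype, Il2 was at 0.91 ± 0.74 and 0.09 ± 0.28, Il4 at 0.09 and 0.22, Il10 at 0.58 and 0.40, Il12b at 0.24 and 0.72, Il17a at 0.13 and 0.56, Il1a at -0.10 and 0.44 and Il1b at -0.13 and 0.08. Il24 had the largest positive difference of the 142 members, with -0.35 ± 0.53 in wild type and 0.79 ± 0.33 in Phc2 L307R, a difference of 1.14 ± 0.34, but was bound in neither genotype and so was not called. Its immunoprecipitate signal was the same in both genotypes (8.62 and 8.56, log2), whereas its input signal was 9.08 in wild type and 7.83 in Phc2 L307R, where none of its 3 input probes was well above background. The lowest interleukin was Il28 (now Ifnl3), at -0.40 and -0.50. By family, the wild-type medians were -0.27 for 5 genes of the IL-10 group, 0.09 for 5 of the IL-17 group, 0.17 for 9 of the IL-1 group, 0.52 for the 3 genes Il3, Il5 and Il13, and 0.47 for both the 6 genes of the IL-6 and IL-12 group and the 6 of the common gamma chain group. None of these groups had more than 2 bound members in wild type.

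Interleukin receptors made up the largest set of bound promoters, 15 of 37 in wild-type cells and 17 in Phc2 L307R, of which 14 were bound in both. Il1rl1, the receptor for Il33, was highest at 2.10 ± 0.35 and 1.94 ± 0.21. Il28ra (now Ifnlr1), the specific chain of the interferon lambda receptor, was at 1.92 ± 0.39 and 1.30 ± 0.24, lower by 0.62 from the scanner files and by 1.81 in the value tables. Il6st, the shared signal chain gp130 of the IL-6 family, was at 1.87 ± 0.03 and 1.98 ± 0.32, and Il6ra, the chain that binds Il6, at 1.31 and 1.52. The ligand Il6 and both chains of its receptor were therefore bound in each genotype. Il1r1, the signalling interleukin-1 receptor, was at 1.74 ± 0.24 and 1.99 ± 0.09, while its decoy Il1r2 was at 0.21 and 0.37. The chains of the IL-17 receptor family were bound at Il17rd (1.63 and 2.27), Il17rc (1.61 and 1.70) and Il17ra (1.36 and 1.22), and not at Il17re (0.90 and 0.17) or Il17rb (0.66 and 0.40).

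Further bound receptor promoters were Il15ra at 1.69 in wild type and 1.59 in Phc2 L307R, Il11ra1 at 1.52 and 1.06, Il31ra at 1.39 and 2.03, Il20ra at 1.38 and 1.18, Il13ra1 at 1.29 and 1.41, Il12rb1 at 1.04 and 1.07 and Il1rap at 1.11 and 0.85. Among the receptors bound in neither genotype, Il2ra was at 0.08 and 0.17, Il2rb at 0.10 and 0.35, Il2rg at -0.27 and -0.44, Il7r at 0.40 and 0.71, and Il9r was the lowest of all members in wild type at -0.49.

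Il4ra, the chain that binds Il4 and serves in the Il13 receptor, was the member called higher in Phc2 L307R. Its 3 probes read 0.64, 0.36 and 0.11 in wild-type cells and 1.53, 1.17 and 1.58 in Phc2 L307R, a mean of 0.37 ± 0.26 against 1.43 ± 0.23. The difference of 1.06 ± 0.36 was 0.80 in the value tables. At the first and the second probe the genotypes lay less than 1 apart, so the call rests on the third. The median of this wild-type array was -0.107, so a scanner ratio of exactly 0 reads 0.11 after centring. The third wild-type probe stands at that value, and whether its ratio was measured was not tested. The immunoprecipitate signal was higher in Phc2 L307R (8.68 and 10.03, log2) and the input signal was similar (8.84 and 8.67). With 1 of 142 members called higher, 0.704%, the share was close to the 0.839% of all promoters. Il10rb was at 0.68 ± 0.27 in wild type and 1.63 ± 0.34 in Phc2 L307R and Il12rb2 at 0.26 ± 0.14 and 1.19 ± 0.34, differences of 0.95 and 0.92 that were just short of a call. At both of these the immunoprecipitate signal differed little or was lower in Phc2 L307R (10.60 and 10.25 at Il10rb, 9.25 and 9.33 at Il12rb2), whereas the input signal was lower there (10.03 and 8.70, and 9.10 and 8.22). The part of the input in these differences was not tested.

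**Figure D3:**
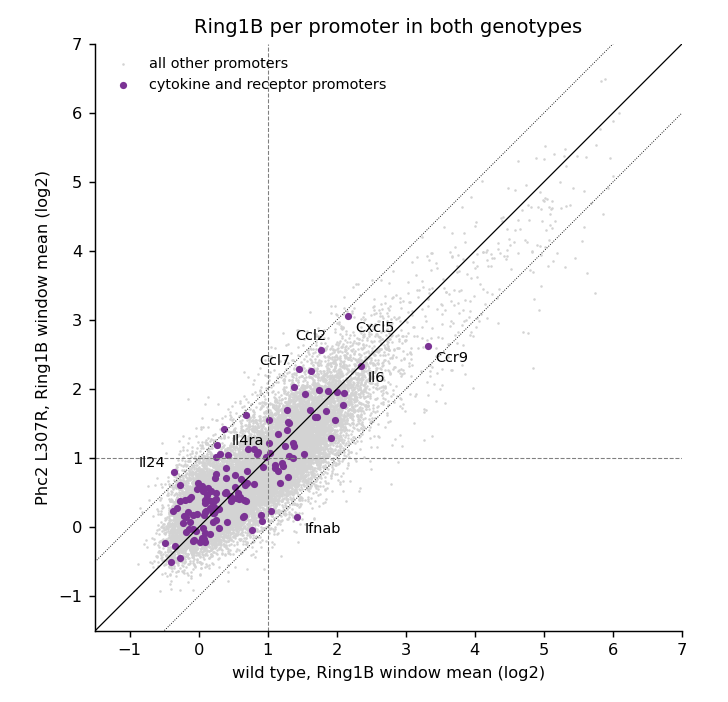
Ring1B window mean (log2) in wild type on the horizontal axis against Phc2 L307R on the vertical axis, with the 142 cytokine and receptor promoters in purple over all promoters in grey; the solid line marks equal levels, dotted lines a difference of 1 and dashed lines the bound level of 1. Ifnab lies below the lower dotted line and Il4ra above the upper one, and Il24 lies above it without reaching the bound level.

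The Tnfsf ligands are membrane-bound or shed signals between immune cells. Tnfsf8, the CD30 ligand, was the highest at 1.84 ± 0.36 in wild type and 1.69 ± 1.04 in Phc2 L307R, followed by Tnfsf13, the B cell factor APRIL, at 1.72 ± 0.30 and 1.60 ± 0.06. Tnfsf18 (GITR ligand) was at 1.30 and 1.53 and Tnfsf9 (4-1BB ligand) at 1.25 and 1.18. Tnfsf11, the osteoclast factor RANKL, was at 0.84 and 1.06. Tnfsf10 (TRAIL) was at 0.21 in both genotypes and Tnfsf14 was lowest at -0.09 and -0.19. The median difference of the class was -0.07, and none of the 11 was called lower or higher. Tnfsf5ip1 (now Psmg2), a proteasome assembly factor that fits the naming pattern only, was at 1.31 and 1.03, and Il4i1, an amino acid oxidase, at -0.21 and 0.16.

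Of the 13 interferons 1 was bound in each genotype, Ifnab in wild type and Ifna13 in Phc2 L307R. Ifnab, a type I interferon gene of the chromosome 4 cluster, was bound in wild type and was the member called lower in Phc2 L307R, 1 of 142 or 0.704% against 1.54% of all promoters. Its 3 probes read 1.26, 1.03 and 1.99 in wild-type cells and 0.22, 0.13 and 0.09 in Phc2 L307R, a mean of 1.43 ± 0.50 against 0.15 ± 0.07. The difference was -1.28 ± 0.54 from the scanner files and -1.05 in the value tables. The input signal was alike (10.43 and 10.46, log2) with all 3 input probes well above background in both genotypes, and the immunoprecipitate signal was 11.75 and 10.54. Ifna13 was at 0.25 in wild type and just inside the bound level at 1.01 in Phc2 L307R, and Ifna11 lay just outside the bound level at 0.93 and 0.87. Ifna7 was at 0.77 and -0.03, lower by 0.80 and in the value tables by 1.37. Ifnb1 was at 0.54 and 0.43 and Ifng at 0.23 and 0.21. The Ifna genes are near copies of one another, so a probe may bind DNA of several of them and their separate levels are uncertain. Of the interferon receptor chains, Ifnar2 was at 1.18 ± 0.21 and 0.64 ± 0.18 and Ifnar1 at 0.71 and 0.82.

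Many of these genes lie in tandem clusters, and 11 groups of 3 or more members were joined by gaps of at most 150 kb. Within a cluster the levels were uneven. On chromosome 11, Ccl2 and Ccl7 were bound, whereas the next 4 genes, Ccl11, Ccl12, Ccl8 and Ccl1, were between 0.11 and 0.30 in wild type and between -0.01 and 0.53 in Phc2 L307R. Ccl2 and Ccl7 were also the pair that differed between genotypes most within this group. On chromosome 5 Cxcl5 was the highest of 5 genes, and Cxcl1, with a function like that of Cxcl2, was the lowest at 0.45 in both genotypes. The neighbouring Cxcl9, Cxcl10 and Cxcl11, all induced by interferon, lay close together between 0.72 and 1.22 in wild type. Of the 12 interferon genes spread over 325 kb of chromosome 4, only Ifnab was bound in wild type, and the genes on either side of it, Ifna2 and Ifna7, were at 0.05 and 0.77. In the chromosome 1 group Il24, Il20, Il19 and Il10, none was bound. Il1rn was the 1 bound gene of the 5 in the chromosome 2 group of the IL-1 family, and Il1rl1 the 1 bound gene beside Il18r1 (-0.14 and 0.40) and Il18rap (0.53 and 0.58). In the type 2 cytokine cluster of chromosome 11, Il13 was at 1.05, Il5 at 0.52 and Il4 at 0.09 in wild type.

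**Figure D4:**
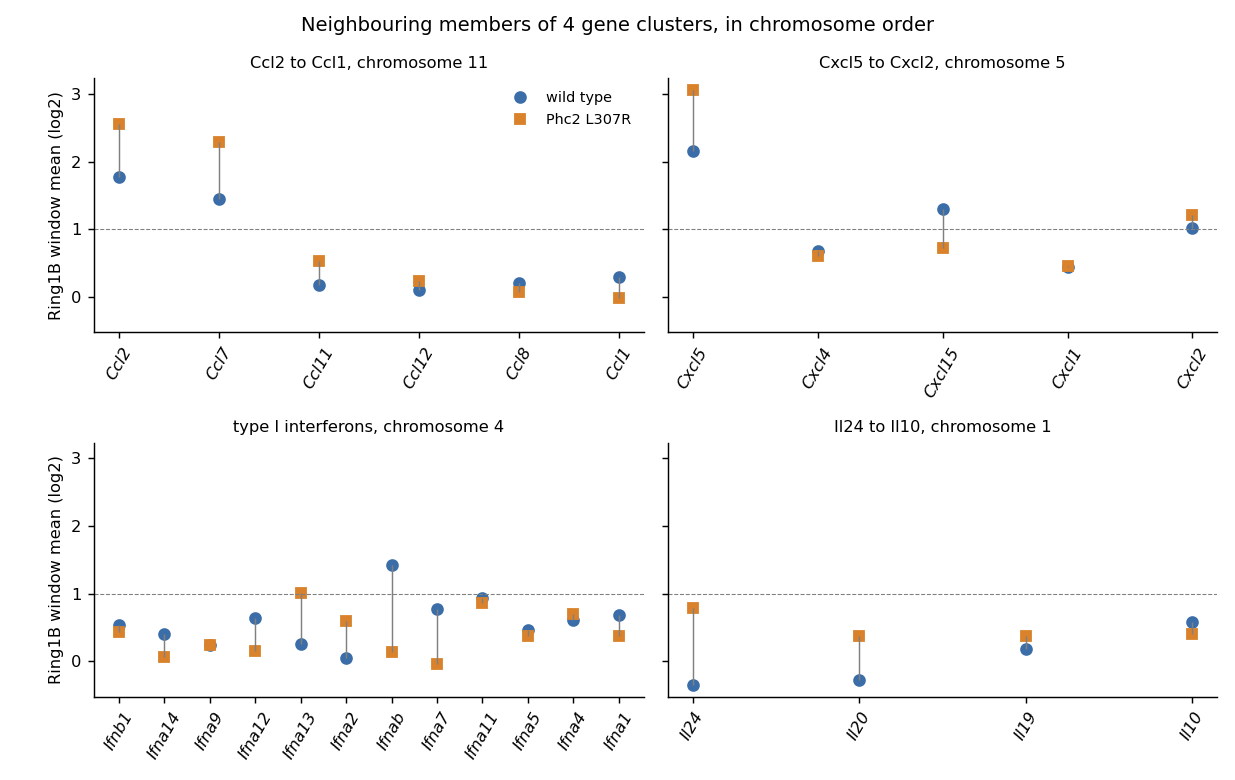
Ring1B window mean (log2) of the members of 4 gene clusters in chromosome order, with circles for wild type, squares for Phc2 L307R and a dashed line at the bound level of 1. In the Ccl2 cluster the first 2 genes are bound and the other 4 are not, and in the interferon cluster Ifnab at 1.43 is the 1 gene above the line in wild type.

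Between genotypes the members moved little. Of 142, 82 were higher and 60 lower in Phc2 L307R, a median difference of 0.09 against -0.05 over all promoters, of which 45.5% were higher and 54.5% lower. The difference was smaller than the SD over the 3 probes at 88 members, and at 11424 of all promoters. Bound in both genotypes were 33 members, 9 were bound in wild type alone and 11 in Phc2 L307R alone. Over all 17649 promoters these counts were 5953, 2067 and 977. Of these 20, the levels of Ifnab and Il4ra alone differed by 1 or more. The value tables departed from the scanner files at further bound members, for example with differences of -0.93 at Cxcr4, -0.92 at Il1rn, -0.95 at Il17d, -0.78 at Tnfsf9, -0.61 at Il12rb1, -0.57 at Cxcl2, -0.55 at Cxcl11, 0.49 at Il12a and 0.04 at Il11ra1. This list is not complete. Over all settings that change the values, the difference ranged from -0.60 to 0.09 at Il20ra, from -0.71 to 0.15 at Cxcl14 and from -0.54 to 1.11 at Tnfsf8. Over the 53 members bound in either genotype the median difference was 0.04, against -0.14 over the 8997 such promoters of the arrays. In the value tables over the same windows these medians were -0.16 and -0.10, so no contrast is drawn. Over the 89 members bound in neither the median difference was 0.10, against 0.03 for the 8652 such promoters, and 0.14 against 0.07 in the value tables. By class the median difference from the scanner files was 0.32 for the CC chemokines, 0.19 for the interleukins, 0.11 for the interleukin receptors, 0.06 for the chemokine receptors, 0.00 for the CXC chemokines, -0.07 for the Tnfsf ligands and -0.09 for the interferons. In the value tables over the same windows these medians were, in the same order, 0.15, 0.28, 0.031, 0.005, -0.25, -0.002 and 0.005. The order of the classes thus depended on the values used. Among the 838 olfactory receptors the median difference was 0.33, with 5 bound in wild type and 62 in Phc2 L307R (7.40%). The rule called 21 of them higher, beside 148 of all 17649 promoters. The cause of this shift was not tested. The sign of the members' median difference depended on the processing. It was -0.05 under normexp, with 80 members lower, and -0.03 over probes well above background, with 77 lower, beside -0.13 and -0.14 over all promoters. It was -0.10 with windows chosen in wild type and 0.32 with windows chosen in Phc2 L307R, beside -0.24 and 0.15 over all promoters.

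CpG content was read from the RefSeq promoters, which held 111 of the 142 members and 12842 of all promoters. Where a gene had several starts, the one with the most CpGs was used, as for Ccl25 and Il1rl1 with 2 each. The window of such a gene may lie at another start. The members had a median of 3 CpGs in the 250 bases before the start against 13 over all promoters, and 21.6% had 10 or more against 61.1%. Of the 68 members with 0 to 4 CpGs 13 were bound in wild type, 19.1% against 11.2% of all promoters with as few. Of the 19 with 5 to 9 CpGs 7 were bound, 36.8% against 39.1%, and of the 24 with 10 or more 13 were bound, 54.2% against 61.9%. With 0 to 4 CpGs the share of bound members was above that of all promoters, and in the other CpG classes it was below. Each class holds few bound members, and no direction is drawn from these shares. The promoters with few CpGs include olfactory receptors, which had a median of 1 CpG and 5 of 838 bound in wild type. The share over all promoters without olfactory receptors was not computed. Across promoters, which are not independent replicates, the rank correlation of CpG number with wild-type level was 0.24 for the members and 0.50 for all promoters. Ccr9, Il6 and Il1rl1, 3 of the 4 highest members in wild type, had 3 CpGs each; the other, Cxcl5, has no entry in the promoter table. Il6st and Cxcr4, with 26 and 19 CpGs, combined many CpGs with a high level, whereas Ccl25 with 45 and Il3ra with 27 were at -0.37 and -0.03.

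**Figure D5:**
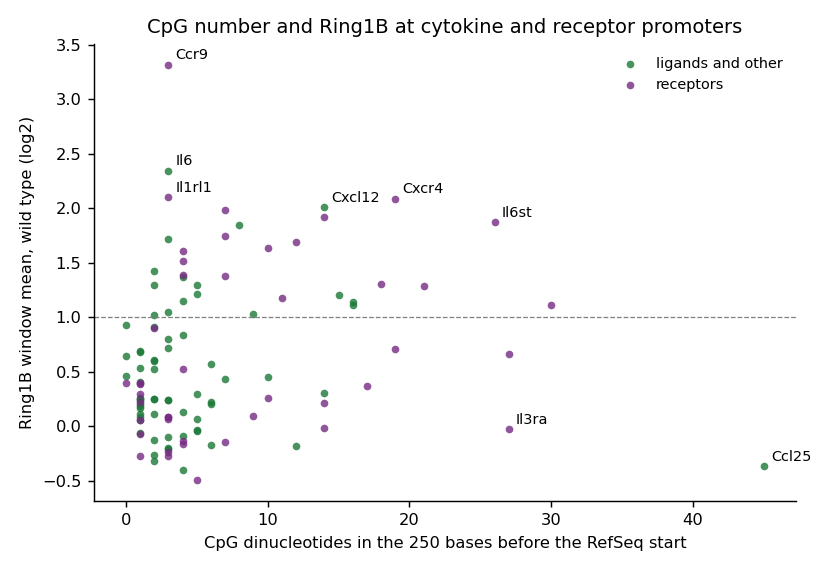
Ring1B window mean in wild type (log2) against the number of CpG dinucleotides in the 250 bases before the RefSeq start, for 111 promoters (green, ligands and other genes; purple, receptors; dashed line, bound level of 1). Ccr9, Il6 and Il1rl1 are high with 3 CpGs each, and Ccl25 with 45 and Il3ra with 27 lie below 0.

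A list of intracellular signalling genes and further receptors had a higher median level than the cytokines and receptors above. Its median also lay above that of all promoters, 0.90 in wild type. In wild type 38 of 68 were bound, 55.9%, against 45.4% of all promoters. Of 68 such promoters (Janus kinases, Stat, Socs, NF-kB, Traf, Irak and Irf genes, the interferon gamma receptor and the Tnfrsf receptors) the median was 1.16 in wild type and 1.00 in Phc2 L307R, with -0.09 as the median difference. The highest in wild type were Tnfrsf19 at 2.82 and 1.93 in Phc2 L307R, Rel, an NF-kB subunit, at 2.58 and 2.02, Socs1, an inhibitor of cytokine receptors, at 2.44 and 2.04, Irf8, a factor of myeloid cells, at 2.27 and 1.22, and Socs3 at 2.10 and 1.89. By the same rule as above, Rela (1.84 and 0.67) and Irf8 were called lower in Phc2 L307R, 2 of 68 beside 1.54% of all promoters, and none was called higher, beside 0.839%. In the value tables the differences were -1.13 at Rela, -2.07 at Irf8, -1.28 at Tnfrsf19, -0.10 at Socs1, -0.02 at Socs3 and -0.01 at Rel, against -1.17, -1.05, -0.89, -0.40, -0.21 and -0.56 from the scanner files. The 19 Tnfrsf receptors among them had a wild-type median of 0.30.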

How the data were processed

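Ring1B immunoprecipitate (Cy5) and input DNA (Cy3) were hybridised together, per the labels, with 1 array per genotype on each of 2 designs and no dye swap. The authors' deposited scanner files hold spot intensity values and log10 ratios from Agilent Feature Extraction 10.7.3.1, already background-subtracted and dye-normalised per the file headers. The value tables deposited beside them also hold log10 ratios, and how the wild-type ones were made is unknown. Ratios were turned into log2 values, control and outlier spots were left out, saturated spots were kept, and each array was centred on its median. Windows and calls were made for all 17649 promoters, and the counts or shares over all of them are printed beside those of the members. Signals named as immunoprecipitate or input are mean log2 intensities of the window. Of 142 names 136 matched a current RefSeq symbol and 6 a synonym. Any member may be named. Values are given for bound and called members, for class extremes and for cluster members, and for the signalling list only where called or among its 5 highest. The members, lists and rules were chosen with earlier results of these data known. The steps were tested on simulated data. Alternatives were normexp (offset 50), loess, arrays of the same spread (median absolute deviation), the value tables, probes well above background, windows of 5 probes or chosen in 1 genotype, the mean over all probes, a bound level of 1.5 and a 1.5-fold rule. The number of arrays limits the precision. Python 3.11.15 (numpy 2.4.6, pandas 2.3.3, scipy 1.17.1, matplotlib 3.10.9) and R 4.3.3 with limma 3.58.1 were used.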

Additional observations from a re-analysis of the deposited data

How the results depend on the processing

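No paired analysis was possible because the numbers in the titles are array designs that share no probes, and with 1 array per genotype no replicate could be left out. Percentages in parentheses are the shares of all promoters under the same setting. The number of members bound in wild type went from 42 to 23 under normexp (22.9%), 4 for the mean over all probes (4.71%) and 18 at a bound level of 1.5 (22.0%); in Phc2 L307R it went from 44 to 15 (12.8%), 6 (3.98%) and 23 (18.6%). The number called lower, 1 as reported, was 3 under normexp (1.12%), 2 with arrays of the same spread (2.4%), 6 in the value tables (4.15%), 2 over probes well above background (0.972%) and 4 at 1.5-fold (6.87%). It was 0 with windows of 5 probes (0.622%), windows chosen in Phc2 L307R (0.51%), the mean over all probes (0.0677%) and the bound level of 1.5 (1.13%). The number called higher, also 1, was 3 with windows chosen in Phc2 L307R (1.67%) and 8 at 1.5-fold (3.25%). It was 0 under normexp (0.0623%), in the value tables (0.295%), over probes well above background (0.167%), with windows of 5 probes (0.267%), with windows chosen in wild type (0.181%), for the mean over all probes (0.0113%) and at the bound level of 1.5 (0.521%). Under loess the promoter called higher was Cxcl5 and not Il4ra. Ifnab had a negative difference and Il4ra a positive one under each of the 9 alternatives that change the values. The median wild-type level fell from 0.42 to -0.073 for the mean over all probes. The cause of these changes was not tested, except that a higher bound level or a smaller fold changes the count by its own construction.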

Other observations

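Promoters that the arrays name by a pair of genes were left out of the members. Of 12 such names that hold a cytokine or receptor gene, the highest was Il23a-Usp52, at 2.05 in wild type and 1.69 in Phc2 L307R, whereas the separate Il23a probes were at -0.34 and -0.27. The same held for Il25, at 0.05 and -0.16 on its own probes and at 1.22 ± 0.26 and 1.54 ± 1.08 on those of Efs-Il25, where the difference of 0.32 turned to -0.48 in the value tables. Il2rg-Med12 was at 1.12 ± 0.09 and 0.15 ± 0.61, a difference of -0.97 ± 0.69 that was -0.47 in the value tables, and Il2rg itself at -0.27 and -0.44.

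The wild-type value tables differed from the wild-type scanner ratios at the windows of the members by a median of 0.06, and by a median of 0.28 over the 42 bound ones. At 3 of the 142 members the tables were higher by 1 or more, and at 0 they were lower by as much. Over all 17649 promoters the median was -0.02, with 446 higher and 59 lower by as much.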
